A study of Mus musculus with 20 samples.

Results

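The genes described here are 40 markers of the macrophages, monocytes, lymphocytes and neutrophils of the liver, taken by symbol from a table of 35504 genes. Of these 23 mark macrophages and monocytes, 12 mark B, T and NK lymphocytes, 3 are expressed across leukocytes and 2 mark neutrophils. The table's lines for 8 of the 40 were displaced and gave no usable values (Clec4f, Fcer1g, Coro1a, Ms4a1, Cd3d, Cd3e, Cd3g and Cd8a), which left 32 genes with values. A filter on low counts then left 31 to be tested among 10207 genes, and the gene under the filter was Gpnmb. The tested genes were 20 macrophage and monocyte genes, 7 lymphocyte genes, 2 pan-leukocyte genes (Laptm5 and Cd52) and 2 neutrophil genes.

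Liver RNA was sequenced from 20 female mice, each mouse giving its own library. They fell into 4 groups of 5 by diet and activity. Sedentary mice on the vehicle diet formed Con.Sed, and mice on the vehicle diet with voluntary wheel running formed Con.VWR. Sedentary mice given oral combined contraceptives (OC) formed OC.Sed, and OC mice with wheel running formed OC.VWR. The labels give no strain, genotype, age, hormone dose or length of treatment. Whole liver was used, so each value below is a level in bulk tissue, where fewer cells of a type and less RNA per cell cannot be told apart.

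The liver holds a large resident macrophage population, the Kupffer cells, which sit in the sinusoids, take up particles and old red cells from blood and depend on signalling through the CSF1 receptor. Monocytes that enter from blood can mature beside them, and under lipid load or injury some macrophages take on a lipid-associated state marked by Trem2, Gpnmb and Mmp12. Lymphocytes are a small part of the tissue: B cells carry the Cd79a and Cd79b signalling chains of their antigen receptor, T cells signal through the kinase Lck, and NK and cytotoxic T cells store granzymes.

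Libraries held 10883936 to 16134618 counts. The labels give no batch. Levels are CPM, each count as a share of its scaled library size, and a difference was called when its adjusted p was under 0.05 in edgeR's quasi-likelihood test with Benjamini-Hochberg adjustment over all 10207 genes. Hepatocyte genes were abundant in every library. The sum of 14 of them was 204084 to 273981 CPM on vehicle and 133776 to 185521 CPM with OC, so the diets did not overlap. One library stood apart on the second principal component, Con.Sed replicate 2, at 53.0 against -17.1 to 11.2 for the other 19. Values without it are given beside the results that it moves most.

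Promoter sequences are shown for the genes on which the results turn. They are the B cell gene Cd79a, the neighbouring neutrophil genes S100a8 and S100a9, and the macrophage elastase gene Mmp12. Each runs from 250 bases before to 50 bases after a RefSeq gene start (GRCm38.p6), in the direction of transcription. Capitals mark GAGGAAGT or its complement ACTTCCTC, the letters searched for as a site of the PU.1 type. PU.1 is the myeloid and B cell transcription factor that Spi1 encodes.
Cd79a, chr7:24897247-24897546, plus strand: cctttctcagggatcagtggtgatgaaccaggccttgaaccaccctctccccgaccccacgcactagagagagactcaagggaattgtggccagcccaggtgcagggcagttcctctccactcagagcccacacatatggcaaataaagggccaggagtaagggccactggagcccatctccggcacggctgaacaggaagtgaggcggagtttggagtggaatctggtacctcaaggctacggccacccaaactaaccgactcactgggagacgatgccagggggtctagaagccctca
S100a8, chr3:90668821-90669120, plus strand: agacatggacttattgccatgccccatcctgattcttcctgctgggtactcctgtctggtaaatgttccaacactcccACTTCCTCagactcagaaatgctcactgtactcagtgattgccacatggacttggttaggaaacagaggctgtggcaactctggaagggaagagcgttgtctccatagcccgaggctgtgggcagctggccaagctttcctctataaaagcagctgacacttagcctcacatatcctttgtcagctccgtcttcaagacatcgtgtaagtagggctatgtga
S100a9, chr3:90695672-90695971, minus strand: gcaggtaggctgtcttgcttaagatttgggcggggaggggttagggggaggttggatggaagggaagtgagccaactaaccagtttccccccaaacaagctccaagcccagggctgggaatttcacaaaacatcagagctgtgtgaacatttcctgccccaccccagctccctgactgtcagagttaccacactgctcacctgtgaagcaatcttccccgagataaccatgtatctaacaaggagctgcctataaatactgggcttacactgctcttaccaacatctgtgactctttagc
Mmp12, chr9:7344147-7344446, plus strand: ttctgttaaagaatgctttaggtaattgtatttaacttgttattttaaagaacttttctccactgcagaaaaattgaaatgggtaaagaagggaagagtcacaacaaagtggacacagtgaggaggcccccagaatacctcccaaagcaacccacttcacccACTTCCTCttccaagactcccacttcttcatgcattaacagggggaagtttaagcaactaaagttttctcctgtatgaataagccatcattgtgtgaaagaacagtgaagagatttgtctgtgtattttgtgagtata
The letters occur in the S100a8 window, starting at position -172 from the gene start, and in the Mmp12 window shown, starting at -88. Mmp12 has a further RefSeq promoter, chr9:7347124-7347423, which is not shown and does not hold them. They are not in the Cd79a or S100a9 window shown. RefSeq promoters were found for 29 of the 40 genes. Of these 29 genes 3 held the letters (Ctss, Mmp12 and S100a8), and 3.20% of all 32851 promoters did. Searched on both strands, the longer ETS letters CCGGAAGT were in 0 of the 29 and in 3.89% of all promoters. The interferon-response letters GAAANNGAA were in 6 of the 29 (Aif1, Ccr2, Ctss, Folr2, Gzma and Timd4) and in 8.56% of all promoters. The core GGAA, which lies within GAGGAAGT and CCGGAAGT, was in all 29 and in 96.0% of all promoters. A gene was counted when any of its promoters held the letters, whereas the percentages are of single promoters, so the measures are unlike. A match is a run of letters and not a bound site.

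**Figure D1:**
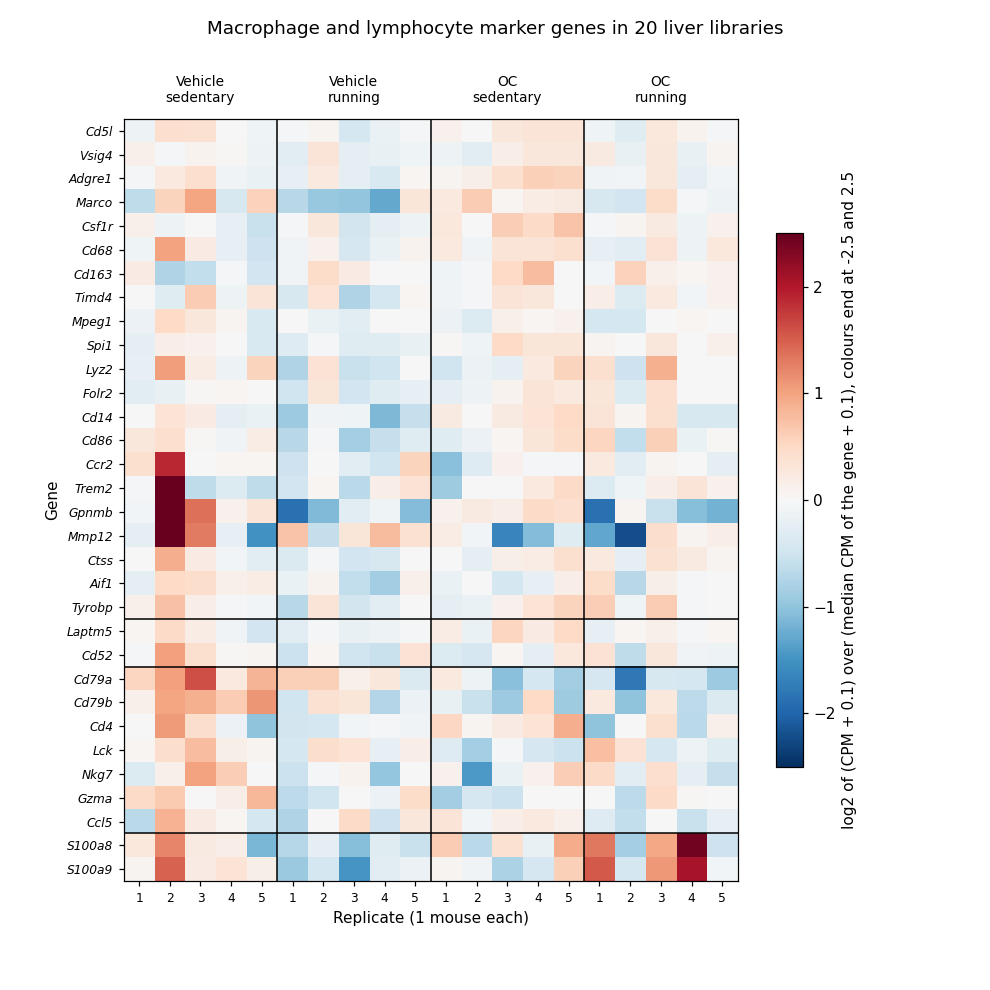
Heat map of the 32 genes with values in the 20 libraries. Colour is the log2 ratio of each library's CPM to the gene's median over libraries, with 0.1 CPM added to both, and the colours saturate at both ends of the bar. Horizontal lines part the macrophage, pan-leukocyte, lymphocyte and neutrophil genes. The red column in the first group is Con.Sed replicate 2, and the blue stretch in the Cd79a row lies in the OC groups.

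Compared per kilobase of exon, the most abundant macrophage transcript was Lyz2 at 119 CPM per kb as a mean of the 20 libraries. Lyz2 encodes the lysozyme of myeloid cells. Next came the Kupffer cell secreted protein gene Cd5l at 76.8 CPM per kb, the lysosomal protease gene Ctss at 51.0 CPM per kb, the signalling adaptor gene Tyrobp at 38.9 CPM per kb and the complement receptor gene Vsig4 at 29.5 CPM per kb. Mpeg1, which encodes perforin-2, was at 23.1 CPM per kb, the lysosomal marker gene Cd68 at 15.4, Csf1r at 14.1, and the scavenger receptor gene Marco at 13.4. Lymphocyte genes were lower per length, from 0.266 CPM per kb for the co-receptor gene Cd4 to 2.40 CPM per kb for the chemokine gene Ccl5. S100a8 and S100a9, which encode the calprotectin subunits of neutrophils and monocytes, were at 2.18 and 4.26 CPM per kb.

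The lymphocyte genes rested on few reads, between 4 and 51 counts per gene and library. Each of them therefore carries more counting error than Lyz2, which had 1295 to 3607 counts per library. The coefficient of variation over the 20 libraries was 14.7% for Vsig4 and 16.1% for Cd5l. It was 61.4% for Cd79a. The highest was 398% for Gpnmb, which fell to 80.7% without Con.Sed replicate 2.

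In sedentary mice the lymphocyte genes that differed between diets were lower with OC. Cd79a and Cd79b, the signalling chains of the B cell receptor, were lower, and so were the T cell kinase gene Lck and the granzyme gene Gzma. These made 4 of 7 tested lymphocyte genes lower and 0 higher, beside 7.2% of all tested genes called lower. The median log2 difference of the 7 genes was -0.78, beside -0.01 over all genes tested. In GRCm38 Cd79a lies at chr7:24897381-24902197, Cd79b at chr11:106311341-106314762, Lck at chr4:129548344-129573641 and Gzma at chr13:113093825-113100981.

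Cd79a was at 1.82, 2.61, 3.91, 1.46 and 2.30 CPM in the 5 Con.Sed mice and at 1.46, 1.11, 0.538, 0.881 and 0.621 CPM in the 5 OC.Sed mice. All 5 OC.Sed values lay below every Con.Sed value. Means were 2.42 ± 0.94 and 0.921 ± 0.375 CPM (SD, n = 5 each). The fitted difference was -1.38 log2 (SE 0.32, edgeR adjusted p = 0.00639), a level 2.60-fold lower. This call held in all 27 alternatives, with log2 differences from -1.61 to -1.13.

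Cd79b was at 1.82, 3.39, 3.15, 2.63 and 3.71 CPM in Con.Sed and at 1.46, 1.11, 0.845, 2.37 and 0.853 CPM in OC.Sed. Only OC.Sed replicate 4, at 2.37, lay above the lowest Con.Sed mouse. The difference was -1.13 log2 (SE 0.32, edgeR adjusted p = 0.0197), with 5 of 5 OC.Sed mice below the Con.Sed mean. The call was lost without OC.Sed replicate 5, at adjusted p = 0.0537.

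Lck, the kinase that starts T cell receptor signalling, was at 1.91, 2.52, 3.22, 2.04 and 1.94 CPM in Con.Sed and at 1.46, 0.976, 1.77, 1.36 and 1.24 CPM in OC.Sed. The groups did not overlap, and the difference was -0.78 log2 (SE 0.26, edgeR adjusted p = 0.0447). Groups without overlap were seen for 2 of the 31 genes in this comparison (Cd79a and Lck, both lower), against 11% of all genes. The Lck call was lost in 11 of 27 alternatives. It was lost without Con.Sed replicate 2, 3 or 4, OC.Sed replicate 1, 2, 4 or 5, Con.VWR replicate 5 or OC.VWR replicate 4, at adjusted p between 0.0507 and 0.116.

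Gzma, a granule protease of NK and cytotoxic T cells, was at 2.73, 3.13, 1.92, 2.19 and 3.53 CPM in Con.Sed. It was at 1.02, 1.43, 1.31, 1.97 and 1.94 CPM in OC.Sed. The groups met only at the bottom of Con.Sed, whose lowest mouse lay just under the upper 2 OC.Sed mice. The difference was -0.81 log2 (SE 0.26, edgeR adjusted p = 0.0383). The call was lost in 9 of 27 alternatives, among them leaving out Con.Sed replicate 1, 2 or 5 or OC.Sed replicate 1, 2 or 3, at adjusted p between 0.0594 and 0.101.

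The remaining lymphocyte genes were not called. Cd4 differed by 0.22 log2, Ccl5 by 0.06 and the NK granule gene Nkg7 by -0.43, at edgeR adjusted p of 0.682, 0.903 and 0.443. Their standard errors were 0.33, 0.27 and 0.37, so a difference of the size seen for Lck lay within 2 standard errors of the Nkg7 difference, but not within 2 of those of Cd4 and Ccl5.

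**Figure D2:**
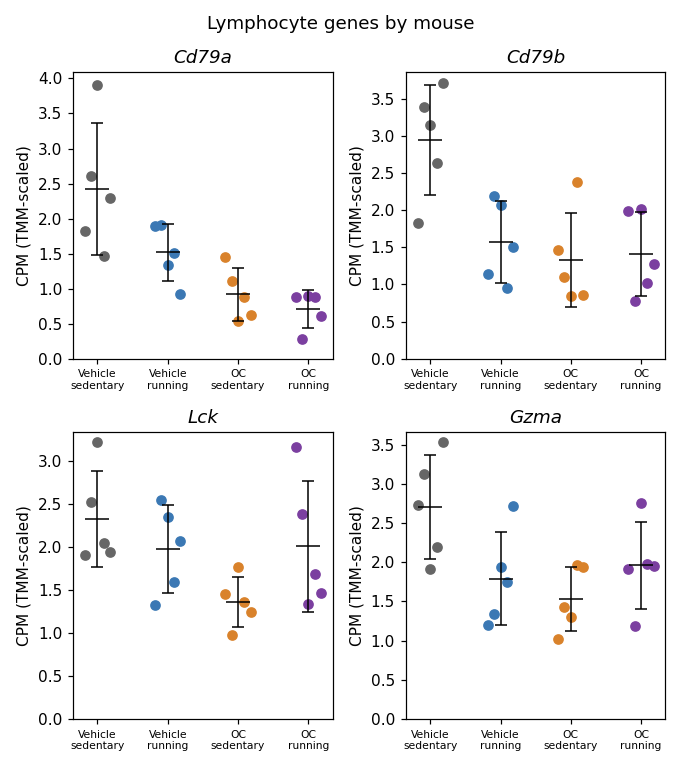
CPM of Cd79a, Cd79b, Lck and Gzma in each mouse of the 4 groups. Points are mice, and bars show the mean and SD of 5. OC.Sed Cd79a values run from 0.538 to 1.46 CPM, at or under the lowest Con.Sed mouse. Lck and Gzma have high mice in OC.VWR, up to 3.17 and 2.76 CPM.

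In running mice Cd79a was the only lymphocyte gene called, 1 of 7, beside 6.06% of all genes called lower. It was at 1.90, 1.91, 1.34, 1.51 and 0.929 CPM in Con.VWR and at 0.883, 0.281, 0.895, 0.878 and 0.609 CPM in OC.VWR. All 5 OC.VWR mice lay below the lowest Con.VWR mouse, although the gap to it was small. The difference was -1.10 log2 (SE 0.34, edgeR adjusted p = 0.0360). That call was lost in 9 of 27 alternatives, at adjusted p of at most 0.0858. These were limma voom with sample weights and leaving out Con.VWR replicate 1, 2, 3 or 4 or OC.VWR replicate 1, 2, 3 or 5.

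Other lymphocyte genes showed no called difference in running mice. Cd79b was at 1.57 ± 0.55 CPM in Con.VWR and 1.42 ± 0.56 CPM in OC.VWR (SD, n = 5 each), a difference of -0.16 log2 (SE 0.33). Lck differed by 0.02 log2 (SE 0.25) and Gzma by 0.13 log2 (SE 0.26). The median of the 7 genes was 0.02, beside 0.01 over all genes. The test of whether the OC effect differed between sedentary and running mice called none of the 31 genes and 0 of 10207 genes. At an unadjusted p under 0.05 it held 1802 genes, 7 of the 31 among them. Without Con.Sed replicate 2 the 7 became 2, S100a9 and Gzma. DESeq2 called 119 genes and none of the 31. For Gzma that interaction was 0.94 log2 (SE 0.37, edgeR adjusted p = 0.227) and for Lck 0.80 (SE 0.36, edgeR adjusted p = 0.266).

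Averaged over activity, with 10 mice per diet, Cd79a was lower with OC by -1.24 log2 (SE 0.24, edgeR adjusted p = 0.000558), and this held in all 26 alternatives. Cd79b was lower by -0.64 log2 (SE 0.23, edgeR adjusted p = 0.0448), a call lost in 16 of 26 alternatives. It was lost without Con.Sed replicate 2, 3, 4 or 5, Con.VWR replicate 2, 3 or 5, OC.Sed replicate 1, 2, 3 or 5 or OC.VWR replicate 2, 4 or 5, at adjusted p between 0.0513 and 0.0893. These 2 of 7 lymphocyte genes stand beside 11% of all genes called lower. The 10 mice of each diet overlapped for each of the 31 genes, whereas they did not for 2.54% of all genes. The average uses the same libraries as the 2 comparisons before it and adds no independent evidence.

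Further lymphocyte and NK cell genes, a list chosen with earlier results of these data known, gave 14 tested genes. Of these 6 were called lower and 0 higher with OC in sedentary mice, beside 7.2% of all genes called lower, and their median difference was -0.83 log2. Among those called lower were the B cell surface genes Cd22 and Cd37, the B cell transcription factor gene Pax5, the T cell gene Cd7 and the T cell kinase gene Zap70. Pax5 was at 1.55 ± 0.31 CPM in Con.Sed and 0.706 ± 0.274 CPM in OC.Sed (SD, n = 5 each). In running mice 1 of the 14 was called lower, Zap70, beside 6.06% of all genes.

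Zap70, the kinase that acts after Lck in T cells, was at 20.7, 34.4, 18.1, 26.4 and 40.7 CPM in Con.Sed and at 12.0, 11.8, 12.1, 11.1 and 13.5 CPM in OC.Sed. In running mice it was at 25.3 to 35.1 CPM on vehicle and 10.2 to 17.3 CPM with OC. The diets did not overlap at either activity. The differences were -1.21 log2 (SE 0.18, edgeR adjusted p = 0.000144) and -1.10 log2 (SE 0.18, edgeR adjusted p = 0.000327). Lck thus had no called difference in the running comparison in which Zap70 had one. The level of Zap70 was far above that of Lck, which ran from 0.976 to 3.22 CPM over all libraries, not scaled by gene length. Which cells gave the Zap70 reads was not tested.

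Genes of other cells also moved with diet. Of 14 tested stellate cell and fibroblast genes 9 were called lower in sedentary mice and 4 in running mice, beside 7.2% and 6.06% of all genes, and 0 higher in either. The 15 with values summed to 895 to 1504 CPM in Con.Sed and 604 to 1009 CPM in OC.Sed. The albumin gene Alb, the main hepatocyte transcript, differed by -0.77 log2 in sedentary mice (edgeR adjusted p = 0.00103). The part of the tissue's cell mix in the lymphocyte differences was not tested.

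Of 20 macrophage genes tested in sedentary mice 1 was called higher with OC (Csf1r) and 1 lower (Mmp12), beside 9.11% of all genes called higher and 7.2% called lower, 16.3% in all, so the members' share was near that of all genes. Their median was -0.05 log2. Kupffer cell genes such as Cd5l (0.07 log2, SE 0.13), Vsig4 (0.06, SE 0.13) and the phosphatidylserine receptor gene Timd4 (-0.05, SE 0.19) showed no called difference.

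Csf1r encodes the receptor for the macrophage growth factors CSF1 and IL-34. It was at 83.7, 70.2, 77.2, 66.7 and 51.9 CPM in Con.Sed and at 92.7, 76.6, 118, 107 and 127 CPM in OC.Sed. All 5 OC.Sed mice lay above the Con.Sed mean, and only OC.Sed replicate 2 fell within the Con.Sed range. The difference was 0.58 log2 (SE 0.15, edgeR adjusted p = 0.0113), or 1.49-fold, and it was called in all 27 alternatives. In running mice Csf1r was at 71.9 ± 14.0 CPM on vehicle and 79.8 ± 7.8 CPM with OC (SD, n = 5 each), a difference of 0.15 log2 (SE 0.15, edgeR adjusted p = 0.533). The interaction for Csf1r was -0.42 log2 (SE 0.21, edgeR adjusted p = 0.289).

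Of the receptor's ligands, Csf1 was at 17.2 ± 1.4 CPM in Con.Sed and 32.3 ± 9.3 CPM in OC.Sed, and at 15.3 ± 2.1 CPM in Con.VWR and 29.2 ± 12.1 CPM in OC.VWR (SD, n = 5 each). Both differences were called, at 0.91 log2 (SE 0.22, edgeR adjusted p = 0.0094) and 0.94 log2 (SE 0.22, edgeR adjusted p = 0.00872). Il34 went the other way. It was at 3.83 ± 0.84 CPM in Con.VWR and 2.17 ± 0.37 CPM in OC.VWR, lower by -0.82 log2 (SE 0.23, edgeR adjusted p = 0.0221). In sedentary mice Il34 was at 3.91 ± 0.55 and 2.58 ± 1.09 CPM and was not called (edgeR adjusted p = 0.0792).

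Spi1, which encodes the transcription factor PU.1, was called only when activity was averaged. It was at 10.4, 13.7, 13.2, 12.2 and 9.36 CPM in Con.Sed and at 12.4, 11.3, 17.3, 15.1 and 15.1 CPM in OC.Sed. In running mice the values were 9.69, 12.0, 9.90, 9.86 and 10.8 CPM on vehicle and 12.7, 12.1, 14.9, 12.2 and 13.3 CPM with OC. The running groups did not overlap, whereas the sedentary groups did. Averaged over activity Spi1 was higher with OC by 0.30 log2 (SE 0.09, edgeR adjusted p = 0.0174) and Csf1r by 0.36 log2 (SE 0.10, edgeR adjusted p = 0.0142). Each of these calls held in all 26 alternatives. They made 2 of 20 macrophage genes called higher, beside 11.9% of all genes.

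In running mice none of the 20 macrophage genes was called by edgeR, beside 13.2% of all genes called in either direction. At an unadjusted p under 0.05 there were 5 (Spi1, Cd14, Cd86, Ctss and Tyrobp), each with a positive difference. The sign was positive for 18 of 20 and the median 0.19 log2, beside 0.01 over all genes. DESeq2 called 1 of the 20, limma voom with sample weights called 4 and library totals alone called 3. Without Con.Sed replicate 2 edgeR called 1, Ctss, at 0.40 log2 (edgeR adjusted p = 0.0436). The difference nearest to the threshold was that of Cd86, a co-stimulatory ligand of antigen-presenting cells, at 0.61 log2 (SE 0.21, edgeR adjusted p = 0.0605). It was at 4.55 to 8.12 CPM in Con.VWR and 5.33 to 12.5 CPM in OC.VWR. Groups without overlap were seen for 2 of the 31 genes here (Spi1 higher, Cd79a lower), against 10.4% of all genes.

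Cd163, the haemoglobin scavenger receptor gene of resident macrophages, was the nearest sedentary gene that was not called. It was at 34.0, 17.5, 19.3, 29.1 and 21.2 CPM in Con.Sed and at 27.7, 29.0, 41.9, 50.6 and 29.3 CPM in OC.Sed. The groups overlapped, with Con.Sed replicate 1 above 3 of the OC.Sed mice. The difference was 0.56 log2 (SE 0.19, edgeR adjusted p = 0.0506), and it passed the threshold in 9 of 27 alternatives. Among these were the fits without Con.Sed replicate 1 or 4, Con.VWR replicate 2, OC.Sed replicate 2 or 5 or OC.VWR replicate 2, at adjusted p between 0.0181 and 0.0495.

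**Figure D3:**
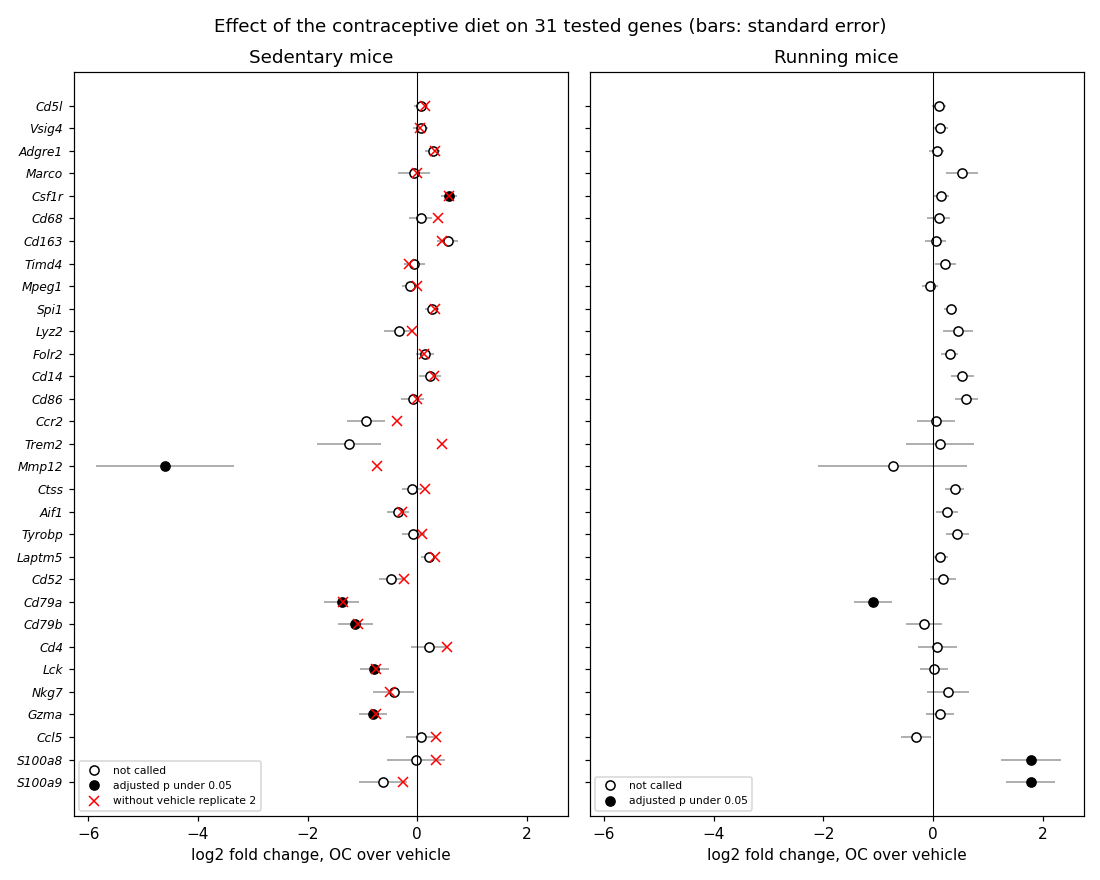
Fitted log2 differences between OC and vehicle for the 31 tested genes in sedentary mice (left) and running mice (right). Bars are standard errors, filled circles are genes at adjusted p under 0.05, and red crosses are refits without Con.Sed replicate 2. The Mmp12 circle at -4.60 moves to -0.72 without that library, while Csf1r stays at 0.58 and Cd79a moves from -1.38 to -1.35.

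Mmp12, the macrophage elastase gene, was at 0.580, 57.1, 1.84, 0.584 and 0.177 CPM in Con.Sed and at 0.802, 0.650, 0.154, 0.271 and 0.543 CPM in OC.Sed. A single mouse, Con.Sed replicate 2, was far above all the others, and the other 4 Con.Sed mice overlapped OC.Sed. The fitted difference was -4.60 log2 (SE 1.26, edgeR adjusted p = 0.0107) with all libraries. Without Con.Sed replicate 2 it was -0.72 log2 at adjusted p = 0.439. The averaged difference of -2.67 log2 (SE 0.93, edgeR adjusted p = 0.0346) became -0.73 log2 without it and was no longer called. That averaged call was also lost without Con.VWR replicate 1, 4 or 5, OC.Sed replicate 3 or 4 or OC.VWR replicate 1 or 2.

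Con.Sed replicate 2 had the highest level of all 20 libraries for 14 of the 32 genes. These were 11 of 21 macrophage genes, 2 of 7 lymphocyte genes, 1 of 2 pan-leukocyte genes and 0 of 2 neutrophil genes. Genes of the lipid-associated state stood out most. Gpnmb, which encodes a lysosomal glycoprotein, was at 39.0 CPM in this library and at 0 to 0.844 CPM in the other 19, 157 times their median. Mmp12 was at 87.8 times and the lipid receptor gene Trem2 at 9.40 times the median of the others, and the monocyte chemokine receptor gene Ccr2 at 3.82 times.

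The same library had 36.3 CPM of Cd68, 123.7 CPM of Ctss, 298.2 CPM of Lyz2 and 22.7 CPM of the leukocyte surface gene Cd52. In contrast its Cd163 level of 17.5 CPM was the lowest of the 20, and its Vsig4 level of 42.6 CPM lay within the range of the other Con.Sed mice. The 21 macrophage genes summed to 1229 CPM in it, against 579 to 1026 CPM in the others. Some lists of other cells were high there and others were not. Summed proliferation genes reached 115 CPM against 19.4 to 62.9 CPM, monocyte and dendritic cell genes 90.6 against 28.9 to 50.9 CPM, and stellate cell genes 1504 against 601 to 1126 CPM. Cholangiocyte genes reached 278 CPM against 168 to 234 CPM, and mesothelial genes 334 against 106 to 266 CPM. Interferon-stimulated genes reached 1180 CPM against 688 to 1014 CPM. Endothelial genes, at 653 CPM, lay within the 476 to 798 CPM of the other libraries, and adipocyte genes, at 1046 CPM, lay below their 1420 to 3594 CPM. The part of these cells in the levels of this library was not tested.

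**Figure D4:**
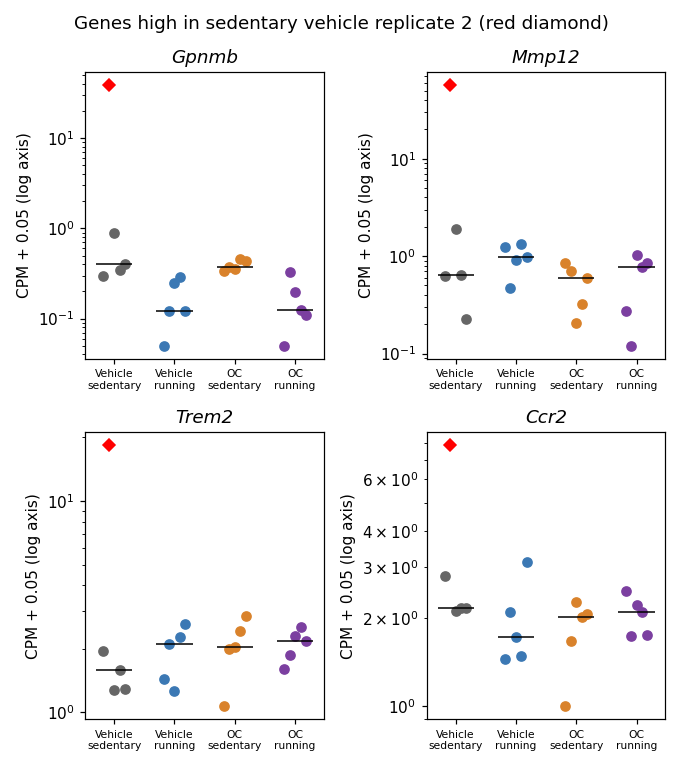
CPM plus 0.05, on a log axis, of Gpnmb, Mmp12, Trem2 and Ccr2 in each mouse. Points are mice and lines are group medians. The red diamond is Con.Sed replicate 2, at 39.0, 57.1, 18.3 and 7.83 CPM, above all other 19 mice for each of these genes.

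The comparisons were refitted without that library. In the sedentary OC comparison the macrophage median went from -0.05 to 0.11 log2, with 13 of 20 differences positive in place of 9, and Csf1r alone was called. The difference for Trem2 went from -1.24 to 0.45 log2 and that for Ccr2 from -0.93 to -0.36, with neither called in either fit. The lymphocyte median was -0.75 in place of -0.78. Cd79a (-1.35 log2, edgeR adjusted p = 0.0102) and Cd79b (-1.07 log2, edgeR adjusted p = 0.0329) stayed called, while Lck and Gzma were at adjusted p of 0.0698 and 0.0686. Averaged over activity, Ctss and the endotoxin co-receptor gene Cd14 were then called higher beside Csf1r and Spi1, at 0.27 and 0.42 log2 (edgeR adjusted p = 0.0434 and 0.0398). S100a8 was then called higher as well, at 1.06 log2 (edgeR adjusted p = 0.0466), and Cd79b was no longer called.

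The 2 neutrophil genes were both called higher with OC in running mice, beside 7.09% of all genes. S100a8 was at 0.633, 0.918, 0.468, 0.875 and 0.715 CPM in Con.VWR and at 2.87, 0.561, 2.24, 6.22 and 0.730 CPM in OC.VWR. S100a9 was at 0.823, 1.20, 0.535, 1.35 and 1.50 CPM in Con.VWR and at 5.01, 1.19, 3.65, 7.25 and 1.58 CPM in OC.VWR. For both genes OC.VWR replicates 1, 3 and 4 were high, and replicates 2 and 5 lay within or close to the vehicle range.

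The differences were 1.79 log2 for S100a8 (SE 0.55, edgeR adjusted p = 0.0321) and 1.78 log2 for S100a9 (SE 0.44, edgeR adjusted p = 0.0105). S100a9 was called in all 27 alternatives. S100a8 was lost in 9, and without OC.VWR replicate 4, its highest mouse, its difference was 1.13 log2 at adjusted p = 0.142. The other libraries without which it was lost were OC.VWR replicates 1 and 3 and Con.VWR replicates 1, 3, 4 and 5. The genes lie 22596 bases apart on chromosome 3, and their proteins form a heterodimer, so they are not independent measurements of neutrophils.

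In sedentary mice S100a8 was at 1.40 ± 0.81 CPM on vehicle and 1.40 ± 0.61 CPM with OC, and S100a9 at 2.48 ± 1.29 and 1.60 ± 0.62 CPM (SD, n = 5 each). Neither was called (edgeR adjusted p = 0.988 and 0.344). The interaction was 2.41 log2 for S100a9 (SE 0.62) with an edgeR adjusted p of 0.201, and 1.81 log2 for S100a8 (SE 0.76, adjusted p = 0.244), so a difference between sedentary and running mice was not called.

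Of 4 other neutrophil and mast cell genes tested 1, Prtn3, was called higher with OC in sedentary mice and again in running mice. Over all genes 9.11% were called higher in sedentary mice and 7.09% in running mice. Prtn3, which encodes the neutrophil serine protease proteinase 3, was at 0.083 to 2.38 CPM in Con.Sed and 22.5 to 109 CPM in OC.Sed. In running mice it was at 0.063 to 0.335 CPM in Con.VWR and 27.7 to 181 CPM in OC.VWR, with its highest mouse replicate 5, not replicate 4. The diets did not overlap at either activity. The neutrophil granule genes Camp and Ngp had 27 and 40 counts in all of OC.VWR and 1 and 8 in Con.VWR, and were under the filter. The highest OC.VWR mouse for both was again replicate 4, at 1.02 and 1.54 CPM. The receptor gene Csf3r, tested, was at 2.69 ± 0.74 CPM in Con.VWR and 3.98 ± 1.25 CPM in OC.VWR and was not called. The granule genes Mpo and Ctsg did not exceed 1.32 CPM in any library. Itgam, an integrin gene of neutrophils and monocytes, was higher with OC in running mice by 1.48 log2 (SE 0.27, edgeR adjusted p = 0.000782). Itgam came from the list of monocyte and dendritic cell genes, of which 8 were tested. It was the only 1 of them called in running mice, where 4 differences were positive and 4 negative (median 0.04 log2). In sedentary mice 0 of the 8 were called and 6 differences were negative (median -0.51 log2). Con.Sed replicate 2 weighs on that median. The 13 genes of the list with values summed to 90.6 CPM in it, against 28.9 to 50.9 CPM in the other libraries. Group medians of the sum were close, at 43.5 CPM in Con.Sed and 42.9 CPM in OC.Sed. The part of neutrophil number in these values was not tested.

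**Figure D5:**
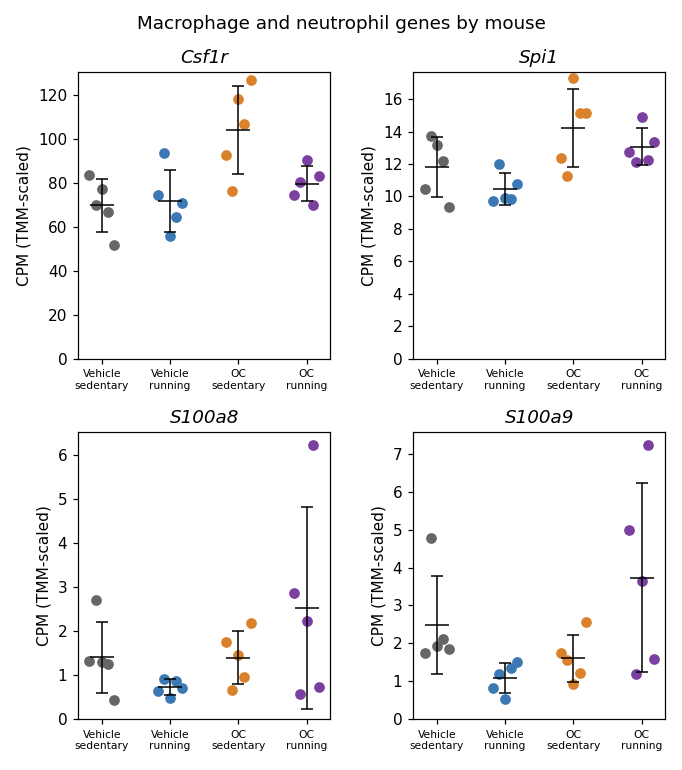
CPM of Csf1r, Spi1, S100a8 and S100a9 in each mouse of the 4 groups. Points are mice, and bars show the mean and SD of 5. Csf1r is highest in OC.Sed, at 76.6 to 127 CPM, and the 3 high OC.VWR mice for S100a8 and S100a9 lie apart from the other 2.

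Wheel running gave no called difference in any of the 31 genes, on either diet or averaged over diet, and 0% of all genes were called. On the vehicle diet 15 of the 31 genes were under an unadjusted p of 0.05, and 14 of these were lower in running mice, beside 1414 of 10207 genes overall. DESeq2 called 42 genes and none of the 31. Without Con.Sed replicate 2 the 15 became 5 (Marco, Timd4, Cd79b, Cd86 and Cd14), each lower in running mice. The lowest adjusted p among the 31 was 0.228, shared by Mmp12 and Marco. The Mmp12 difference was -3.66 log2 with all libraries and 0.21 log2 (edgeR adjusted p = 0.906) without that library. Marco, a scavenger receptor gene, was at 16.3, 37.2, 49.9, 19.1 and 37.6 CPM in Con.Sed and at 15.5, 13.1, 12.7, 10.3 and 31.2 CPM in Con.VWR. The groups overlapped through Con.VWR replicate 5, and the difference was -0.95 log2 (SE 0.29, edgeR adjusted p = 0.228), or -0.89 log2 (edgeR adjusted p = 0.366) without Con.Sed replicate 2.

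Differences on vehicle were negative for 18 of 20 macrophage genes (median -0.37 log2), 7 of 7 lymphocyte genes (median -0.59), 2 of 2 pan-leukocyte genes and 2 of 2 neutrophil genes, beside a median of -0.01 over all genes. Without Con.Sed replicate 2 the macrophage median was -0.17 with 15 of 20 negative, and the lymphocyte median -0.53 with 6 of 7 negative. S100a9 was the only 1 of the 31 whose groups did not overlap, at 1.74, 4.78, 1.92, 2.12 and 1.85 CPM in Con.Sed against at most 1.50 CPM in Con.VWR, where 2.01% of all genes had no overlap. Its difference was -1.20 log2 (SE 0.46, edgeR adjusted p = 0.277), or -0.83 log2 without Con.Sed replicate 2.

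On the OC diet 4 of the 31 genes were under an unadjusted p of 0.05, beside 694 of all genes. They were Adgre1, Csf1r, Lck and S100a9, and the fit without Con.Sed replicate 2 added Laptm5, Cd4 and Ccl5, making 7. Adgre1, which encodes the F4/80 antigen of mature macrophages, was at 28.8 ± 4.7 CPM in OC.Sed and 21.9 ± 3.2 CPM in OC.VWR (SD, n = 5 each). Its difference of -0.40 log2 (SE 0.14) had an edgeR adjusted p of 0.683. The medians were -0.04 for macrophage and 0.04 for lymphocyte genes, and DESeq2 called 1 gene, not among the 31. Averaged over diet 7 of the 31 and 496 of all genes were under an unadjusted p of 0.05, with 5 of the 31 without Con.Sed replicate 2, and DESeq2 called 2 genes, none of the 31. The OC and running comparisons share groups of mice.

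Signals that act on these cells were described from a list of ligand, chemokine and cytokine genes, of which 23 were tested. In sedentary mice 2 were called higher with OC and 9 lower, and in running mice 4 higher and 3 lower. Over all genes 9.11% were called higher and 7.2% lower in sedentary mice, and 7.09% and 6.06% in running mice. The largest falls in sedentary mice at a mean of at least 1 CPM were those of Il1rn, which encodes the interleukin 1 receptor antagonist (-1.72 log2, SE 0.30, edgeR adjusted p = 0.000609), and of the interferon-induced T cell chemokine genes Cxcl9 (-1.24 log2, SE 0.25, edgeR adjusted p = 0.00258) and Cxcl10 (-1.05 log2, SE 0.32, edgeR adjusted p = 0.0288). Cxcl9 was at 14.7 to 44.9 CPM in Con.Sed and 7.93 to 16.9 CPM in OC.Sed. In running mice it was at 17.4 to 28.2 CPM and 6.03 to 12.5 CPM, where it was also called (-1.20 log2, SE 0.26, edgeR adjusted p = 0.00384). Cxcl14, a chemokine gene, was higher with OC in both, by 1.41 log2 (SE 0.37) and 2.01 log2 (SE 0.37), at edgeR adjusted p of 0.0128 and 0.000913.

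Of 15 further Kupffer cell genes tested 1 was called higher in sedentary mice, the syndecan gene Sdc3 (0.50 log2, SE 0.14, edgeR adjusted p = 0.0175), and 1 in running mice, the complement properdin gene Cfp (0.46 log2, SE 0.12, edgeR adjusted p = 0.0160). Over all genes 9.11% and 7.09% were called higher. Their medians were -0.10 and 0.00 log2. Of 14 tested lipid-associated macrophage genes 3 were called lower in sedentary mice (Ctsl, Cd36 and the lipid droplet gene Plin2) and 2 in running mice (Ctsb and Plin2). Over all genes 7.2% and 6.06% were called lower. With all 20 libraries the medians of the 14 genes were -0.48 and -0.07 log2, with 14 and 10 differences negative. The sedentary median was not computed without Con.Sed replicate 2. The mean log2 CPM of the 14 genes ran from 6.45 to 7.73 in Con.Sed and from 6.47 to 6.67 in OC.Sed. The group medians of that mean were close, at 6.58 and 6.55. These genes are also expressed by hepatocytes and other liver cells. Among 19 further pan-leukocyte genes 2 were called higher in sedentary mice, the actin-bundling gene Lcp1 and the guanine exchange factor gene Dock8. In running mice 3 were called higher, among them the phagocyte oxidase gene Ncf1 and Dock8 again. Dock8 was at 20.5 to 35.1 CPM in Con.Sed and 70.2 to 106 CPM in OC.Sed, a difference of 1.66 log2 (SE 0.19, edgeR adjusted p = 4.60e-06). The members Laptm5 (0.21 log2, SE 0.14) and Cd52 (-0.47, SE 0.23) were not called in sedentary mice, nor in running mice at 0.14 and 0.19 log2.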

How the data were processed

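Liver RNA of 20 mice was sequenced as paired-end TruSeq stranded libraries, per the labels' protocols. Reads were aligned with STAR to mm10, with R 4.05 and limma also named, per the submitters' processing notes. How reads were counted, and with which annotation and strand setting, is not given in the sources used here. The authors deposited 1 table of expected counts per gene and library, in which every value used here was a whole number. The tests had been planned for plain counts and were run unchanged. Of 35504 lines 11511 (32.42%) were displaced or could not be read as counts and were left out, 8 of the 40 genes among them. Libraries held 10883936 to 16134618 counts, and the labels give no batch. Replicates are separate mice numbered by accession order, so p-values measure the spread between mice.

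Genes were filtered with filterByExpr, scaled by TMM and tested with edgeR 4.0.16 (glmQLFit and glmQLFTest, 1 mean per group, all 20 libraries, R 4.3.3). P-values were adjusted over 10207 genes by the Benjamini-Hochberg method with a threshold of 0.05. Standard errors are Wald errors with the quasi-likelihood dispersion. CPM and their group means were computed from the deposited expected counts. Alternatives were library totals alone, DESeq2-type size factors, no filter, limma 3.58.1 voom with and without sample weights, DESeq2 1.42.0, the 2 groups alone, and leaving out each library. The method was tested on simulated data. Every member was described, with values by mouse for those called. Genes outside the 40 were named when called at a mean of at least 1 CPM, or otherwise chosen after their values were seen (Pax5, Il34 in sedentary mice, Csf3r, Camp, Ngp, Mpo and Ctsg). The 40 genes and all lists were chosen with earlier results of these data known. Some called genes of these lists are not reported here by name.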

Additional observations from a re-analysis of the deposited data

Results flagged for a closer look

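In each group of 5 mice the highest or lowest library was examined for a gap to the nearest other library of more than 0.71 of the group's range. Among 128 pairs of gene and group 11 passed. About 1 in 20, or 6.4, would by chance if CPM were normally distributed, which was not checked. The pairs share mice and are not independent. Of the 11 pairs 6 were Con.Sed replicate 2. It was at 57.1 CPM of Mmp12 against 0.177 to 1.84 in the other 4 mice, and at 39.0 CPM of Gpnmb against 0.249 to 0.844. It was at 18.3 CPM of Trem2 against 1.23 to 1.91, and at 7.83 CPM of Ccr2 against 2.07 to 2.73. It was at 39.7 CPM of Tyrobp against 22.7 to 26.8, and at 4.78 CPM of S100a9 against 1.74 to 2.12.

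Con.VWR replicate 2 was high for Vsig4, at 54.1 CPM against 35.3 to 40.2, and for Folr2, a folate receptor gene of resident macrophages, at 22.5 CPM against 13.0 to 15.7. Marco was high in Con.VWR replicate 5, at 31.2 CPM against 10.3 to 15.5, and in OC.Sed replicate 2, at 39.5 CPM against 26.2 to 30.0. Cd163 was high in OC.VWR replicate 2, at 44.3 CPM against 28.2 to 32.6.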

How the results depend on the processing

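The call for Cd79a in sedentary mice, for Csf1r in sedentary mice, for S100a9 in running mice, and for Cd79a, Csf1r and Spi1 averaged over activity held in every alternative run. Leaving out 1 library at a time gave, with OC in sedentary mice, 998 to 1794 called genes (1665 with all), 1 to 4 macrophage genes (2 with all) and 2 to 4 lymphocyte genes (4 with all). In running mice it gave 817 to 1679 genes (1343 with all), 0 to 3 macrophage genes, 0 to 1 lymphocyte genes and 1 to 2 pan-leukocyte and neutrophil genes. Averaged over activity it gave 2043 to 2616 genes (2338 with all), 2 to 5 macrophage genes, 1 to 3 lymphocyte genes and 0 to 1 pan-leukocyte and neutrophil genes. It gave 0 to 1 genes for running on OC, 0 to 1 for running averaged over diet and 0 to 2 for the interaction. Library totals alone gave 2 lymphocyte genes in sedentary mice, 3 macrophage genes in running mice, and 6 macrophage and 1 lymphocyte gene averaged. They moved the median of all genes to 0.10, 0.12 and 0.11 log2, with 82.6%, 80.6% and 81.0% of 2072, 1725 and 3158 calls higher, against 55.9%, 53.9% and 51.8%. No filter gave 2 lymphocyte genes in sedentary mice and 1 averaged. Voom gave 1 pan-leukocyte or neutrophil gene in running mice. Voom with sample weights gave 1 macrophage gene in sedentary mice, 2224 genes, 4 macrophage and 0 lymphocyte genes in running mice, and 4 genes for the interaction. DESeq2 gave 1 macrophage gene in running mice, 42, 1 and 2 genes for running on vehicle, on OC and averaged, and 119 for the interaction. The 2 groups alone gave 1 macrophage gene in sedentary mice and 1 pan-leukocyte or neutrophil gene in running mice. The cause was not tested. No paired analysis was possible because the labels give no replicate numbers shared between groups. Lymphocyte genes had 4 to 51 counts per library, which limits their precision.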

Other observations

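Other lists were described in the same fits. Of 26 interferon-stimulated genes 1 was called higher and 2 lower with OC in sedentary mice, and 2 higher and 3 lower in running mice. Of 24 pattern recognition and NF-kB genes 3 were called higher and 0 lower at either activity. Endothelial genes gave 1 lower of 17 at either activity. None of 12 proliferation genes was called by edgeR in either comparison. The medians of these lists in sedentary mice were -0.17, 0.02, -0.09 and -0.48 log2, beside -0.01 over all genes. Con.Sed replicate 2 weighs on the proliferation median. Summed proliferation genes were at 115 CPM in that library. Their group medians went the other way, at 23.3 CPM in Con.Sed and 32.4 CPM in OC.Sed. Over all genes 9.11% were called higher and 7.2% lower in sedentary mice, and 7.09% and 6.06% in running mice.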
